A study of Homo sapiens with 2 samples.

Results

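The genes described here are CTNNB1, APC, AXIN1, AXIN2, TCF7L2, LEF1 and LGR5, which encode the core of the beta-catenin branch of Wnt signalling. An LSD2 peak was assigned to a gene when its midpoint lay between the gene's outer ends on hg19, and a peak that the deposited list gave more than once was counted once. The 7 genes span 763 kb together and held 178 of the 370863 distinct LSD2 peaks. For each gene the 200 kb on either side was counted in the same way and held 434 peaks over all genes.

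The peaks came from chromatin immunoprecipitation followed by sequencing (ChIP-seq) of HepG2, a human line from a liver tumour, grown in medium with 25 mM glucose and 10% heat-inactivated fetal bovine serum. An LSD2 ChIP library, made with a rabbit polyclonal antibody to recombinant human LSD2, was compared with an input library of chromatin DNA that was not precipitated. No treatment, knockdown or second cell line was part of the data. Each condition had 1 library, so no value below has a replicate error, no p-value is given, and the 95% intervals cover counting only and treat peaks as independent. The list gives the position of each peak without a height or score, and the depth of either library is unknown, so an absent peak means only that no interval was called. A listed peak likewise means only that an interval was called, and LSD2 binding at single peaks was not tested otherwise.

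LSD2 is the product of KDM1B and removes methyl groups from lysine 4 of histone H3. In the absence of a Wnt signal, beta-catenin is held low by a destruction complex in which AXIN is the scaffold and APC a binding partner, and phosphorylated beta-catenin is degraded. When Wnt is received, with LGR5 at the membrane as a receptor for R-spondins that strengthens the signal, beta-catenin accumulates and acts in the nucleus with the DNA-binding factors TCF7L2 and LEF1. AXIN2 and LGR5 are themselves well-known targets of this pathway. In liver the pathway is known for setting the pericentral programme of hepatocytes, and HepG2 carries a CTNNB1 allele with an in-frame deletion that removes the phosphorylation sites for degradation. Where that deletion falls on the positions below was not analysed here, and the copy number of HepG2 DNA at these loci was not measured.

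All 7 genes held LSD2 peaks, at densities from 6.59 to 38.9 per 100 kb. Most windows of these lengths held peaks too, so that count is not a result about these genes. The 5th percentile of the windows was 0 per 100 kb at the AXIN2 length and 2.44 to 4.14 at the other lengths. Peaks numbered 23.3 per 100 kb over the 7 genes, 15.5 in their flanks and 13.0 over all 2862 Mb of searched sequence. LGR5 stood first with 38.9 peaks per 100 kb (exact Poisson 95% interval 29.5 to 50.4). It was followed by CTNNB1 at 26.8 (13.4 to 48.0), TCF7L2 at 26.7 (20.3 to 34.5), APC at 23.1 (15.8 to 32.6) and AXIN2 at 21.2 (8.51 to 43.6). AXIN1 at 7.66 (2.49 to 17.9) and LEF1 at 6.59 (2.84 to 13.0) were below the level of the searched sequence as point values. The interval of the ratio between each gene and the next in this order included 1, the widest step being AXIN2 over AXIN1 at 2.76 times (0.754 to 11.0). Without LGR5 the density over the remaining genes was 19.6 per 100 kb, and without any other single gene it was 22.0 to 26.5.

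**Figure D1:**
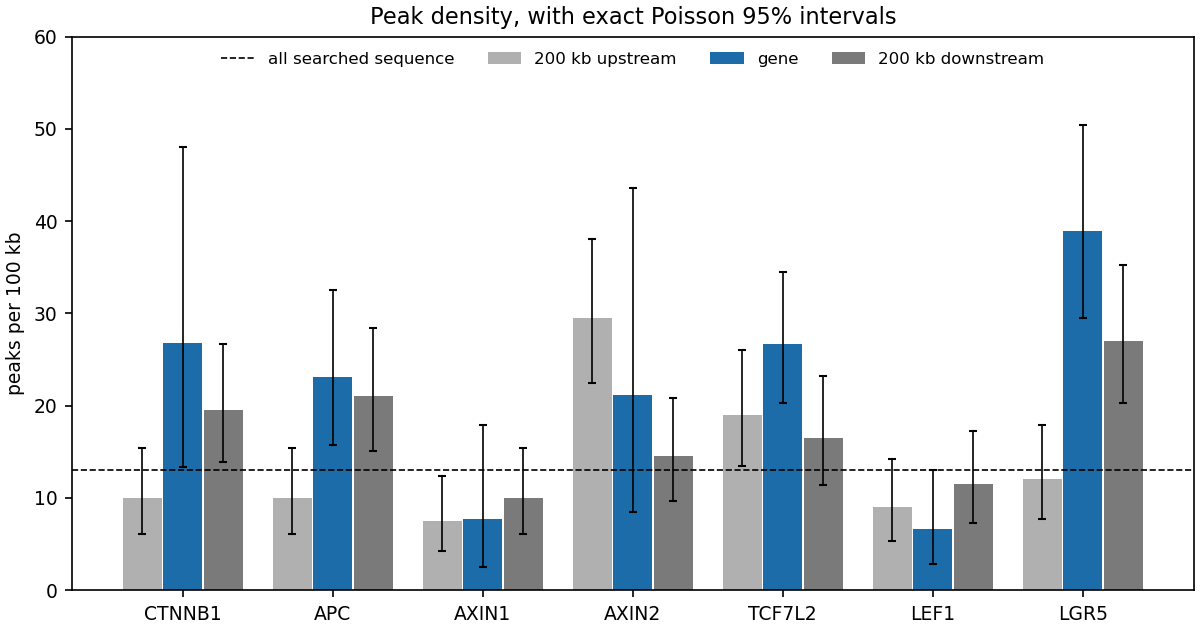
Bars give LSD2 peaks per 100 kb in each gene (blue) and in the 200 kb upstream (light grey) and downstream (dark grey) in the gene's reading direction, with exact Poisson 95% intervals that cover counting only; the dashed line is the 13.0 peaks per 100 kb of all searched sequence. The LGR5, TCF7L2, CTNNB1 and APC bars are above both of their flanks, while AXIN1 and LEF1 are low with low flanks.

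Peaks near the starts of these genes were about as frequent as at other positions. A peak midpoint lay within 1 kb of the outer 5′ end in 1 of the 7 genes, LEF1, and 22.6% of all positions on a 1 kb grid of the searched sequence had a peak that close. Within 5 kb, 5 of the 7 genes had a peak, and 67.1% of the grid positions did, so neither count is a result about these genes. CTNNB1 and AXIN1 had none within 5 kb, and their nearest peaks had midpoints 5613 and 5218 bases inside the gene. APC was the only gene whose nearest peak lay upstream, at 1911 bases, from chr5:112041099-112041482. In AXIN2, TCF7L2 and LGR5 the nearest midpoint lay 2962, 3792 and 2339 bases inside the gene. At the LEF1 end the peak was chr4:109089504-109089679, a 176 bp interval with its midpoint 520 bases inside the gene, and its line was listed more than once.

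The start regions of LEF1, which had a peak near its outer end, and of CTNNB1, which had none within 5 kb, are shown. CTNNB1 was picked for this after its peaks had been seen. Both run from 250 bases before to 50 bases after a start listed by RefSeq on GRCh38.p14, at chr4:108166252-108166551 on the minus strand for LEF1 and chr3:41199255-41199554 on the plus strand for CTNNB1. Those positions cannot be set against the hg19 positions of the peaks. On GRCh38.p14 itself, the listed LEF1 start lies inside the outer 5′ end that RefSeq gives for the gene. The LEF1 letters are therefore not shown to be those at the peak near the gene's outer end. The LEF1 and CTNNB1 regions thus cannot be read as a start with a peak against a start without. Capitals mark each CG dinucleotide.
LEF1: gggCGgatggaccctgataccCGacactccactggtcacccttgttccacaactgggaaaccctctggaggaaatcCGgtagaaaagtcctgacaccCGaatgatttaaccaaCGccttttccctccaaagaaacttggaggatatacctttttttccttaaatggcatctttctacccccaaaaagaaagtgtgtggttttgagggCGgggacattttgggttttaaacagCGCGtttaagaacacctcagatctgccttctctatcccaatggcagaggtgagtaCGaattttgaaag
CTNNB1: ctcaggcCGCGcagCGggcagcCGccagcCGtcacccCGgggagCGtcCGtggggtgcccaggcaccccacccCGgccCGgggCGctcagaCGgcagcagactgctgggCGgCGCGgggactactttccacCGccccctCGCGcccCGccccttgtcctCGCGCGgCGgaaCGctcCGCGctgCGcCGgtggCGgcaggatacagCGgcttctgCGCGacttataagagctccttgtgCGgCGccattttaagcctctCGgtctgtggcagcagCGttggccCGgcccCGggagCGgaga

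The LEF1 region had 9 CG dinucleotides and 47.0% G and C, against 39 and 74.0% in the CTNNB1 region and a median of 58.7% G and C over all RefSeq start regions. AXIN1, also with no peak within 5 kb of its end, had 44 and 78.0%. The 2 start regions of APC had 14 CG dinucleotides and 56.3% G and C, and 23 and 68.0%. The 3 of TCF7L2 had 25 and 65.7%, 7 and 42.7%, and 5 and 48.7%, with no peak within 1 kb of that gene's outer end. The TCF7L2 regions of 42.7% and 48.7% and the APC region of 68.0% belong to starts inside the outer 5′ end, as does that of LEF1. Peaks were counted at outer ends only, so the base content of these regions cannot be set against peaks at their own starts. RefSeq start regions were matched for 5 of the 7 genes, 8 regions in all. None of the 8 held CTTTGAT, the core letters of the TCF and LEF binding motif, on either strand, and 2.62% of the 35116 start regions of all genes did. The absence of these letters in a 300-base window says nothing of binding by those factors.

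CTNNB1 encodes beta-catenin itself, the effector of the pathway. Its 41.0 kb on chromosome 3 (chr3:41240942-41281939, plus strand) held 11 peaks, of 150 to 396 bp with a median of 227 bp. The first lay at chr3:41246480-41246631 and the widest at chr3:41278799-41279194, close to the 3′ end. When the gene was cut into 3 equal parts from 5′ to 3′, the parts held 2, 4 and 5 peaks. The longest stretch without a peak was 7.49 kb, from 41264948 to 41272432. CTNNB1 had 1.82 times the peak density of its flanks (exact interval 0.862 to 3.50), and 9.31% of all windows of its length had a ratio at least as high. As many peaks as in CTNNB1 were held by 8.11% of such windows. Its upstream 200 kb held 20 peaks and its downstream 200 kb held 39, so the gene was 2.68 times as dense as the upstream side (1.16 to 5.87) and 1.38 times as dense as the downstream side (0.636 to 2.74). All 11 peaks were listed once.

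APC, whose product binds beta-catenin in the destruction complex, held 32 peaks over 139 kb of chromosome 5 (chr5:112043202-112181936, plus strand). The peaks were 148 to 660 bp wide, with a median of 239 bp. From 5′ to 3′, 3 equal parts of the gene held 8, 10 and 14 peaks. The widest, chr5:112181094-112181753, lay at the last bases of the gene, and 3 peaks of 319 to 432 bp lay between 6.36 and 9.05 kb from the 5′ end. The ratio to the flanks was 1.49 (0.940 to 2.32), and 12.5% of windows of that length had one at least as high, while 8.27% held as many peaks. The sides differed as in CTNNB1, with 20 peaks upstream and 42 downstream. Against the upstream side APC was 2.31 times as dense (1.28 to 4.26), and against the downstream side 1.10 times (0.671 to 1.78).

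The 2 AXIN genes encode related scaffolds of the destruction complex and held the fewest peaks by count, 5 in AXIN1 and 7 in AXIN2. AXIN2 is also the shortest of the genes, and its 21.2 peaks per 100 kb were above the 13.0 of all searched sequence as a point value. AXIN1, on chromosome 16 (chr16:337440-402676, minus strand), had 5 peaks in 65.2 kb. They were 397, 141, 364, 285 and 153 bp wide in the reading direction, and the first and widest was chr16:397260-397656. The 18.9 kb at the 3′ end, from 337440 to 356293, held none. Its flanks were low too, with 15 peaks upstream and 20 downstream, and they hold many genes, the alpha-globin genes HBA1 and HBA2 among those downstream. The ratio of 0.876 (0.268 to 2.25) was one that 43.7% of windows of the same length matched or fell below, and 30.1% of them held as few peaks.

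AXIN2, on chromosome 17 (chr17:63524681-63557766, minus strand), had 7 peaks in 33.1 kb, and 4 of them were 486 to 757 bp wide. In the reading direction a pair of narrow peaks of 172 and 201 bp came first, 2.96 and 3.82 kb from the start. A stretch of 13.8 kb without a peak followed, which was 41.6% of the gene. Beyond it came a pair of wide peaks of 627 and 757 bp at 18.0 and 18.9 kb, the wider at chr17:63538524-63539280 and only 162 bases from the other. The last 3 peaks, of 170, 697 and 486 bp, lay 24.2 to 28.1 kb from the start. By number AXIN2 was as dense as its flanks, at a ratio of 0.962 (0.376 to 2.07), with 52.5% of windows of that length at or below it and 19.5% holding as many peaks. By bases covered it was 1.71 times its flanks, since peaks took up 9.40% of the gene and 5.51% of the flanks. The difference between AXIN2 and AXIN1 in peaks per 100 kb has the wide interval given above, so their counts of 7 and 5 do not separate them.

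**Figure D2:**
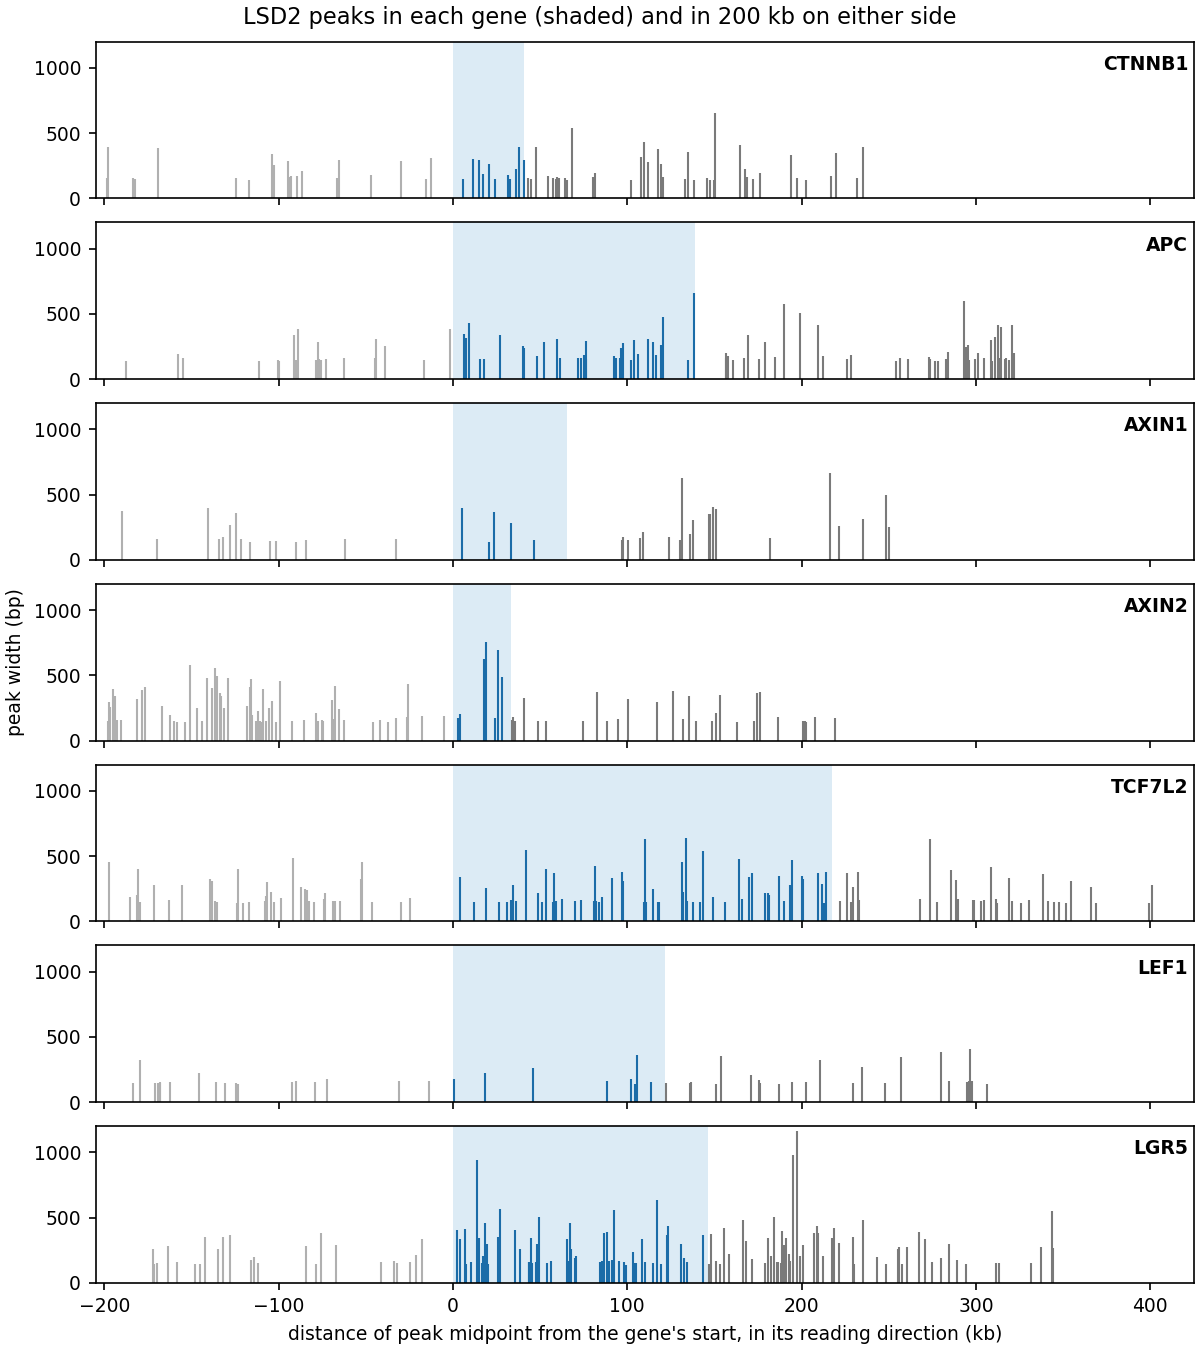
Each line is an LSD2 peak, placed by the distance of its midpoint from the gene's outer 5′ end in the reading direction (kb) and as tall as the peak is wide (bp); shading marks the gene and grey lines the 200 kb on either side. LGR5 and TCF7L2 are filled with peaks along their length, LEF1 has a stretch of 42.4 kb without one, and the tall lines of AXIN2 are its 4 peaks of 486 to 757 bp.

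TCF7L2 encodes the TCF factor through which beta-catenin acts in many tissues and is the longest of the genes, at 217 kb on chromosome 10 (chr10:114710009-114927436, plus strand). It held 58 peaks of 139 to 640 bp, with a median of 214 bp, spread as 17, 22 and 19 over 3 equal parts. No stretch longer than 13.1 kb was without a peak, which is 6.02% of the gene. The widest peak, chr10:114843425-114844064, lay 134 kb from the start, and 9 of the 58 peaks were at least 400 bp wide. The ratio to the flanks was 1.50 (1.04 to 2.16), and 10.7% of windows of that length had one at least as high. A smaller share of them, 2.98%, held as many peaks, and 4.81% of those on chromosome 10 did. The upstream and downstream sides held 38 and 33 peaks (downstream over upstream 0.868, 0.528 to 1.42).

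LEF1 encodes the other DNA-binding partner of beta-catenin described here, and it was the sparsest of the genes. Its 121 kb on chromosome 4 (chr4:108968701-109090112, minus strand) held 8 peaks of 140 to 357 bp, with a median of 176 bp. After the peak near its 5′ end there was 1 at 18.6 kb and 1 at 46.1 kb, and then none for 42.4 kb, which is 34.9% of the gene. The 5 others lay 88.6 kb or more from the start, among them the widest, chr4:108984429-108984785. LEF1 had 0.643 times the density of its flanks (0.260 to 1.39), and 16.6% of windows of that length were at or below this ratio. Peaks covered 1.35% of LEF1 and 7.08% of TCF7L2, and LEF1 also had the lowest coverage of the 7 genes. Windows of the LEF1 length on chromosome 4 held as few peaks in 10.1% of cases, and over all chromosomes in 17.9%.

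LGR5, the R-spondin receptor, had the highest density and the widest single peak of the genes. With all peaks counted it also had the highest ratio to both flanks, a rank that changed under some alternatives below. Its 147 kb on chromosome 12 (chr12:71833550-71980090, plus strand) held 57 peaks, nearly as many as the longer TCF7L2. The first peak lay at chr12:71835686-71836093, and the widest, of 938 bp, at chr12:71846780-71847717, 13.7 kb from the start. Peaks were 137 bp wide at the narrowest and 203 bp at the median, 11 of them reached 400 bp, and together they covered 10.8% of the gene. They lay close together, with a median gap of 1372 bases against 4218 over all peaks. Gaps under 1 kb made up 41.1% of the 56 gaps within LGR5, 24.6% within TCF7L2 and 17.4% over the whole list. Gaps shorten as density rises, so these values are not a result apart from the density. From 5′ to 3′, 3 equal parts of the gene held 22, 19 and 16.

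Relative to its flanks LGR5 was 1.99 times as dense (1.39 to 2.84), and 3.23% of windows of the same length had a ratio at least as high. Among 19365 such windows of all chromosomes, 0.310% held as many peaks. On chromosome 12 it was 2 of 886 windows, or 0.226%, both with 57 peaks. The window at chr12:27834717-27981257 lay elsewhere, and the other shared 68326 bases with LGR5. The neighbouring DNA was uneven, with 24 peaks upstream and 54 downstream, and the 50 kb just beyond the 3′ end held 22 of those 54. LGR5 was therefore 3.24 times as dense as the upstream side (1.98 to 5.46) but 1.44 times as dense as the downstream side, with an interval of 0.975 to 2.13 that includes 1.

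Across the genes, the ratio to both flanks together was above 1 in CTNNB1, APC, TCF7L2 and LGR5 and below 1 in AXIN1, AXIN2 and LEF1. The median ratio of windows of the same length was 0.930 to 0.981 over the 7 lengths, so ratios on either side of 1 are usual. The exact interval lay wholly above 1 in 2 genes, TCF7L2 and LGR5, and wholly below 1 in none. Of all windows as long as TCF7L2, 7.68% had an interval wholly above 1, and of those as long as LGR5, 6.49%. For the lengths of CTNNB1, APC, AXIN1, AXIN2 and LEF1 this share was 3.75%, 6.32%, 4.48%, 3.38% and 6.05%. The share wholly below 1 was 2.26% for windows as long as CTNNB1, 5.81% for APC, 3.51% for AXIN1, 1.65% for AXIN2, 7.75% for TCF7L2, 5.46% for LEF1 and 6.20% for LGR5. For TCF7L2 the interval included 1 when only the upstream side was used (1.40, 0.917 to 2.17) or when flanks were shortened to 100 kb (1.48, 0.961 to 2.31). For LGR5 it included 1 when only the downstream side was used (1.44, 0.975 to 2.13). The same 4 genes with ratios above 1 were denser than either side taken singly. The share of all windows denser than both of their sides was not counted, so 4 of 7 is not a result about these genes. The upstream and downstream sides differed from each other, with an exact interval of their ratio that excluded 1, in 4 of the 7 genes, CTNNB1, APC, AXIN2 and LGR5. Of all windows of the median gene length, 19.7% had sides that differed in this way.

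**Figure D3:**
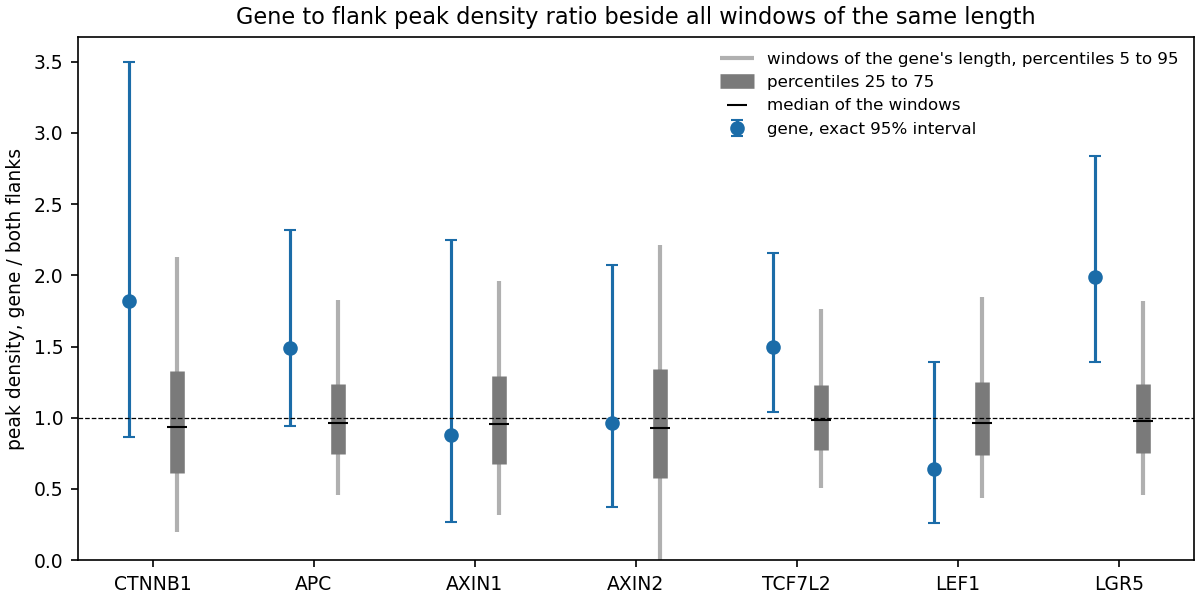
Blue points give the ratio of peak density in the gene to that in both 200 kb flanks, with exact 95% intervals for counting; grey bars give the same ratio for all windows of the gene's length along the searched sequence, from the 5th to the 95th percentile, with the 25th to 75th thicker and the median marked. LGR5 at 1.99 is the only point above the 95th percentile of its windows, 1.82, and AXIN1, AXIN2 and LEF1 are within or near the thick bars.

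Peaks in the genes were wider than those beside them in 6 of the 7 genes as medians. The share of all windows with a median width above that of their flanks was not counted, so this number is not a result about these genes. Over all 178 peaks the median width was 214 bp (interval of the median 180 to 261 bp), against 174 bp in the flanks (165 to 186 bp) and 173 bp over the whole list. The difference of the medians was largest in AXIN2, at 486 bp against 186 bp, where 7 peaks leave an interval of 170 to 757 bp for the gene. APC had 239 bp (166 to 293 bp) against 165 bp (155 to 198 bp), and TCF7L2 had 214 bp (162 to 289 bp) against 170 bp (158 to 228 bp). For CTNNB1 the medians were 227 and 169 bp, for AXIN1 285 and 179 bp and for LEF1 176 and 155 bp. AXIN1 and LEF1 rest on 5 and 8 peaks. LGR5 was the exception, with 203 bp in the gene (164 to 334 bp) and 240.5 bp in the flanks (183 to 286 bp). The downstream side of LGR5 had a median of 269 bp and held the widest peak of any flank, 1162 bp. In each of the 7 genes the intervals of the gene's and the flanks' medians overlapped.

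**Figure D4:**
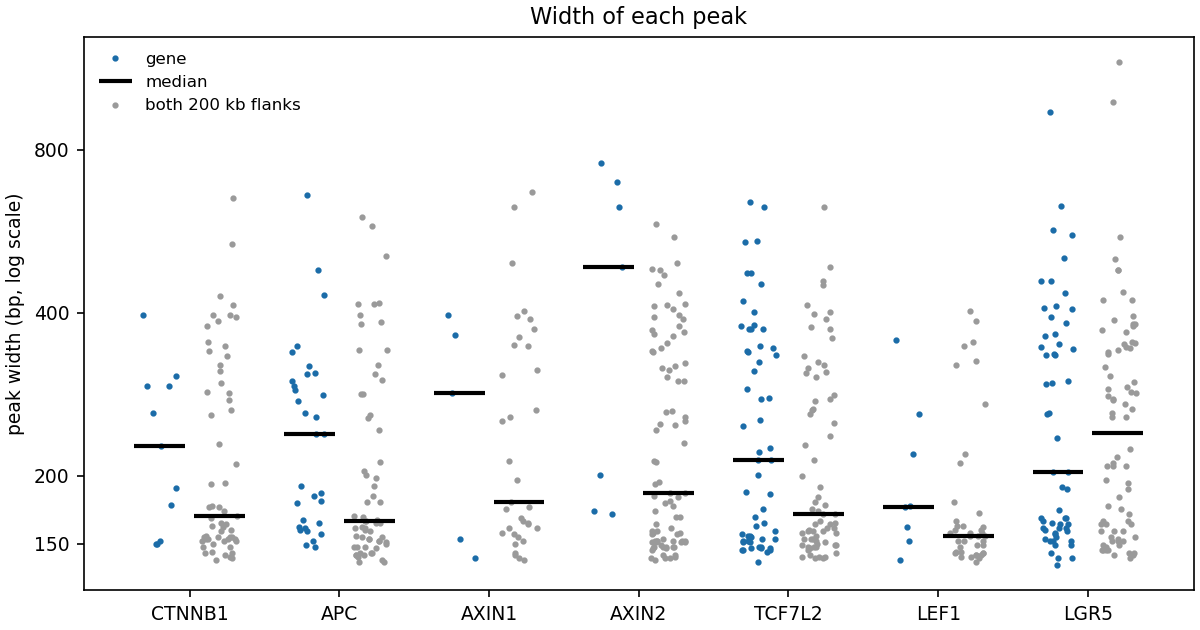
Each dot is the width of an LSD2 peak (bp, log scale) in a gene (blue) or in both of its 200 kb flanks (grey), and black lines are medians. The flank dots, and those of APC, TCF7L2 and LGR5, are dense near 150 bp with a spread above, while the AXIN2 median of 486 bp rests on 7 dots.

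Of the 178 peaks, 52.8% were at least 200 bp wide, compared with 42.6% in the flanks and 42.2% over the whole list. At 400 bp or more the shares were 15.2%, 9.68% and 7.89%. The 27 peaks of that width were 11 in LGR5, 9 in TCF7L2, 4 in AXIN2 and 3 in APC, and CTNNB1, AXIN1 and LEF1 had none. Position along the gene showed no common trend, with 55, 60 and 63 peaks in 3 equal parts from 5′ to 3′ over all genes.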

How the data were processed

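LSD2 ChIP and input were represented by 1 library each, grouped by source name. The submitters' processing notes name BWA and hg19. Per the file headers, the authors trimmed reads, removed duplicates and ran MACS on the LSD2 reads with input as control (read and fragment length 120 bp, effective genome size 2700 Mb, p-value cutoff 1e-05, enrichment factor 32, local biases detected). For the tool versions the sources used here give nothing. The authors deposited interval starts and ends in bases, and their 414095 lines gave 370863 distinct intervals. A fixed cutoff can call more and wider peaks where more reads fall, so both can move with depth and DNA copy number, which was not tested here.

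Gene intervals on hg19 came with the choice of genes. The start is the outer end given by the strand, from RefSeq for 5 genes and from general knowledge for AXIN2 and LGR5. Gaps between peaks count the bases from the end of a peak to the start of the next. Searched sequence ran from first to last peak of each chromosome, split at peak-free stretches over 500 kb. Windows of each gene's length were tiled end to end over it with 200 kb flanks. Ratios have exact conditional binomial (Clopper-Pearson) 95% intervals, counts exact Poisson intervals and medians order-statistic intervals. The counting was tested on simulated peaks placed independently of each other. How the intervals behave where peaks cluster was not tested by that simulation. In the deposited list, the 2 sides of windows of the median gene length had an interval excluding 1 in 19.7% of cases. A 95% interval would exclude 1 far less often for independent peaks of even density. The intervals given here thus do not cover the spread that places in the list usually show. All 7 genes are named, with the widest peak and the peak nearest the start of each. Genes, lists and measures were chosen with earlier results of these data known, and the count of intervals wholly above or below 1 was added after seeing the data. Alternatives changed the peak set, the assignment, the flanks and the start distance. Exons, introns, peak sequences and other pathway genes were not analysed here, since no hg19 genome or annotation was used. Python 3.11.15 with scipy 1.17.1 was used.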

Additional observations from a re-analysis of the deposited data

How the results depend on the processing

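Of 62 alternative values of the gene to flank ratio, 61 stayed within the interval of the original value. The exception was LGR5 against its upstream side alone, at 3.24. These intervals are wide, as with 0.268 to 2.25 for AXIN1, so staying within them says little of how stable a ratio is. Ratios of CTNNB1, APC, TCF7L2 and LGR5 stayed above 1 under each alternative run, while those of AXIN1 (0.697 to 1.15), AXIN2 (0.717 to 1.71) and LEF1 (0.499 to 1.10) fell on both sides of 1. Among peaks of at least 200 bp the LGR5 ratio was 1.76, below CTNNB1 at 2.55, APC at 2.23 and TCF7L2 at 1.97. Against the downstream side alone, LGR5 at 1.44 was below TCF7L2 at 1.62 and AXIN2 at 1.46. Leaving out peaks under 200 bp left the genes with 94 peaks, with a median of 339.5 bp by construction, and 0 genes had a peak within 1 kb of the start. That number of genes was 0 within 500 bp, 2 within 2 kb and 5 within 5 kb, as wider windows hold more. LGR5 held at least as many peaks as 100% of windows of its length on chromosome 12, against 99.7% over all chromosomes. On the gene's own chromosome, as many peaks were held by 8.22% of windows for CTNNB1, 6.51% for APC and 23.5% for AXIN2. For AXIN1, 31.2% of the windows on chromosome 16 held as few. Counting every line gave 204 peaks, and the APC ratio was then 1.64 (1.09 to 2.44). The APC interval also lay above 1 with flanks of 500 kb (1.86, 1.22 to 2.76) and among peaks of at least 200 bp (2.23, 1.11 to 4.39). Flanks of 500 kb were not run for AXIN1, which lies too near the chromosome end. No paired analysis was possible because there was 1 ChIP and 1 input library. Unknown depth limits each count.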

Other observations

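The 200 kb sides of the genes can be set beside their neighbours. In the RefSeq gene table, 5 of the 7 genes have no protein-coding gene within 200 kb on 1 side and at least 1 on the other, and in 5 of these 5 the side with a gene held more LSD2 peaks. CTNNB1 had 39 peaks downstream, where ULK4 lies, and 20 upstream. APC had 42 downstream, where SRP19, REEP5, DCP2 and MCC lie, and 20 upstream, and LGR5 had 54 downstream, with ZFC3H1, THAP2, TMEM19 and RAB21, and 24 upstream. AXIN2 was denser upstream, with 59 peaks on the side of CEP112 and 29 on the other, and TCF7L2 had 38 upstream, on the side of VTI1A, and 33 downstream. Together the sides with a gene had 23.2 peaks per 100 kb and the sides without had 12.6, close to the 13.0 of all searched sequence. Against the side with a gene alone, the density ratio of each of the 5 had an interval that included 1. The ratios were 1.38 in CTNNB1 (0.636 to 2.74), 1.10 in APC (0.671 to 1.78) and 1.44 in LGR5 (0.975 to 2.13). They were 0.717 in AXIN2 (0.276 to 1.57) and 1.40 in TCF7L2 (0.917 to 2.17). Against the side without a gene, the interval lay above 1 in all but AXIN2. For TCF7L2 the interval of the ratio between the sides included 1 (0.868, 0.528 to 1.42), so its order is not beyond counting. AXIN1 and LEF1 have coding genes on both sides. The table is on GRCh38.p14 and was used for neighbour names only, the pattern was noticed in these data, and no test was run. How often a side with a gene holds more peaks over the whole genome was not analysed here, so nothing particular to these 5 genes can be read from the count.

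Intervals that the list gives more than once lay next to each other. Of the 178 peaks in the genes 26 were repeated, or 14.6%, compared with 10.1% over the whole list. They were 9 of 32 in APC, 8 of 58 in TCF7L2, 4 of 7 in AXIN2, 4 of 57 in LGR5 and 1 of 8 in LEF1, with 0 in CTNNB1 and AXIN1. The 26 belonged to 9 stretches of successive repeated peaks, of 1 to 9 peaks each. APC had 6 in a stretch of 9 that spanned 42.9 kb and ran past its 3′ end, from 112158087 to 112200977, and AXIN2 had 4 in a stretch of 5 that ran past its 5′ end, from 63538524 to 63562791. TCF7L2 had 4 within 3.40 kb, from 114841081 to 114844477, and the first 3 peaks of LGR5 were all repeated. Of the 26, 88.5% had a repeated peak as a direct neighbour, and over the whole list 87.0% of repeated peaks did, against 6.75% of peaks listed once. The sources used here do not say what a repeated line stands for.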
